A study of Homo sapiens with 7 samples.

Results

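The proteasome genes of K562 cells were followed through the stepwise acquisition of dasatinib resistance. The genes were those of the deposited comparison tables whose symbol begins with PSM, a letter from A to G and a number. The symbols matched 47 of the 10452 genes in those tables, out of 25702 gene IDs counted. Of the 47, 44 encode proteasome subunits, activators or assembly factors, and they divide into 14 genes of the 20S core, 17 of the 19S cap, PSMB10 of the immunoproteasome, 5 activator or inhibitor genes and 7 assembly chaperones. The other 3 symbols, PSMA3-AS1, PSMC3IP and PSMD5-AS1, go on after the number. They name other kinds of gene and are treated apart.

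K562 is an established chronic myeloid leukaemia line driven by the BCR::ABL1 fusion, and dasatinib is a kinase inhibitor of BCR::ABL1. Bulk RNA sequencing was carried out on 7 K562 lines with 1 library each. The 2 control lines were drug naive K562 and K562 kept in the DMSO vehicle. The dasatinib resistant (DasR) lines were taken from one escalation in rising dasatinib. They comprised 3 early stage intermediates, at 10, 15 and 25 nM, and 2 late stage lines, at 50 and 200 nM.

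All lines therefore share one parental line, and every DasR line is a stage of the same culture lineage, so the lines of a group are not independent derivations. Nothing in the labels says that any line was cultured or sequenced more than once. The p-values here measure the spread between lines within a group, pooled over the groups. That spread is between the drug naive and DMSO controls and between DasR lines at different doses. The early and late grouping is that of the study, which chose it on these same libraries. Total counts per library ranged from 20059656 in 25 nM DasR to 27844799 in 15 nM DasR. The chi-square of counts between lines of a group was 21.1 to 70.1 times its degrees of freedom, far above sampling noise. No 2 libraries were therefore counted as 1.

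The proteasome degrades proteins that carry ubiquitin chains. Its 20S core is a barrel of alpha and beta subunit rings, with the proteolytic sites on the beta subunits PSMB5, PSMB6 and PSMB7. The 19S cap binds the chains, unfolds the substrate with an ATPase ring (PSMC genes) and feeds it into the core. Interferon-inducible subunits PSMB8, PSMB9 and PSMB10 can replace PSMB5, PSMB6 and PSMB7 to form the immunoproteasome, which favours peptides for MHC class I. In mammalian cells the subunit genes are induced together by the transcription factor NFE2L1 when proteasome activity is low.

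The typical proteasome gene varied less over the 7 lines than the typical tested gene, while a few members rose. The 31 subunits of the 20S core and 19S cap had a median SD of 0.18 in log2 CPM (counts scaled to a common library size), against 0.25 over all tested genes. The tested genes were not matched to the subunits for level of expression. In the early stage, 4 of the 44 genes rose at a false discovery rate (FDR) under 0.005 and 0 fell. They were PSMF1, PSMD1, PSMB2 and PSMB5. In the late stage, PSMD1 and PSMB2 rose and 0 fell. At an FDR under 0.05, 11 of the 31 subunits were higher in each stage. That is 35.5%, against 22.6% of all genes early and 16.2% late. At that FDR 1 subunit was lower early and 0 late, against 24% and 17.6% of all genes. The inducible catalytic gene PSMB8, which lay under the expression filter, went from 98 counts over the controls to 1 count over all 5 DasR lines.

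The FDR is the Benjamini-Hochberg adjusted p of edgeR's quasi-likelihood test over all 10452 genes. Among all of these genes, 7.92% rose and 10.1% fell in the early stage, beside 9.09% and 0% of the 44. In the late stage 3.42% of all genes rose and 4.56% fell, beside 4.55% and 0% of the 44. The share of members that rose was thus near the background in both stages. At an FDR of 0.05, 13 members were higher in the early stage and 3 lower, that is 29.5% and 6.82% against 22.6% and 24% of all genes. At the same FDR 13 were higher and 0 lower in the late stage, against 16.2% and 17.6% of all genes. For the counts of 0 lower members, 3 members in the early stage and 1 at the late stage were lower at an unadjusted p under 0.05. In either direction, 18 and 19 of the 44 had such a p, beside 5665 and 4798 of all 10452 genes. DESeq2 and limma voom also called 0 lower members.

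The median log2 fold change of the 44 genes was 0.16 in the early stage, where 34 were above 0, and 0.16 in the late stage, where 33 were above 0. The medians over all tested genes were 0.003 and -0.004. Both stages were compared with the same 2 control lines, so their values are not independent. Every early line lay above both controls in 21 of the 44 genes and below both in 6, which among all genes happened in 35.4% and 35.2%. For the late lines it was 23 above and 3 below, against 33.4% and 35.2% of all genes.

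**Figure D1:**
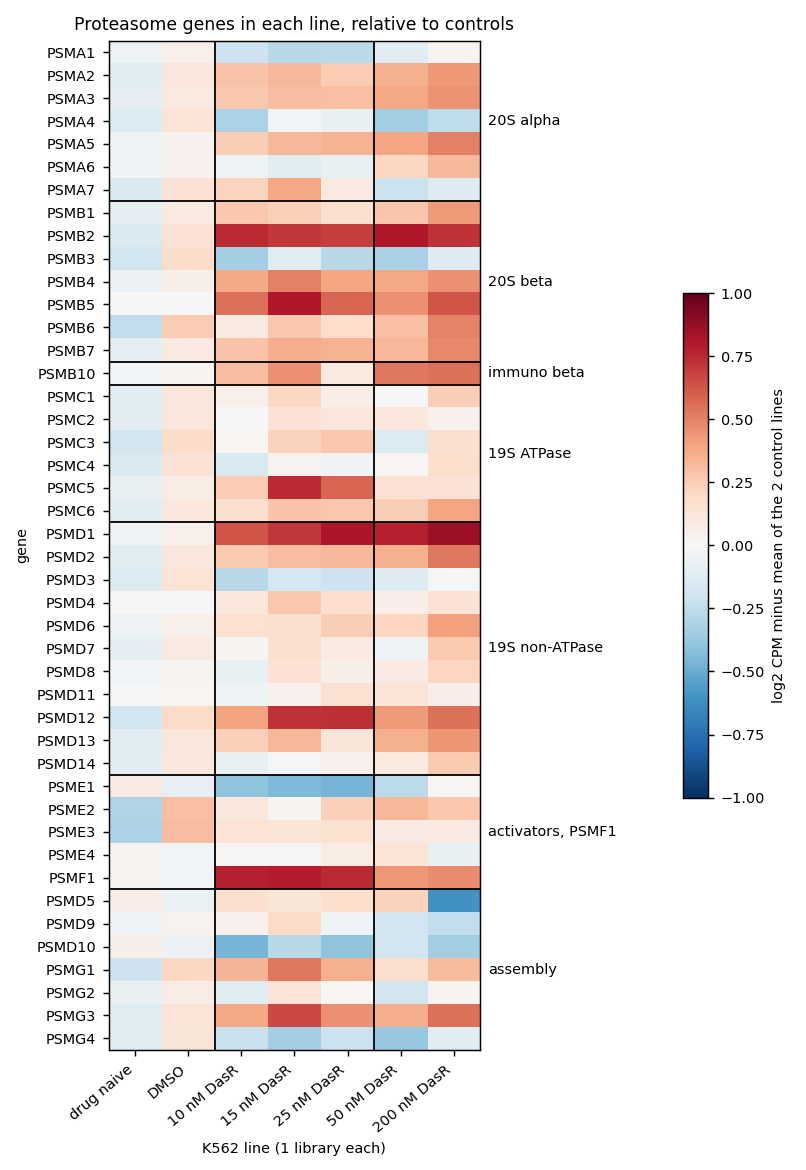
Log2 CPM of the 44 proteasome genes (rows, grouped by role) in each of the 7 lines (columns, 1 library each), minus the mean of the 2 control lines. PSMB2, PSMB5, PSMD1 and PSMF1 were higher than both controls in all 5 DasR lines, and 38 of the 44 genes were lower in drug naive K562 than in DMSO.

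The 2 control lines differed from each other in these genes. Expression was higher in DMSO than in drug naive K562 for 30 of the 31 subunit genes of the 20S and 19S, and the exception, PSMB5, differed by -0.01 on the log2 scale. The median difference was 0.21 on the log2 scale, while over all 10452 genes it was 0.01, with 51.8% higher in DMSO. This offset was of the size of the group differences: the 31 subunits had a median log2 fold change of 0.19 in the early stage and 0.27 at the late stage. With drug naive K562 left out, the medians were 0.12 and 0.15, and with DMSO left out they were 0.345 and 0.31. The summed counts of the 31 genes made up 0.349% of all counts in drug naive K562, 0.416% in DMSO, 0.422%, 0.461% and 0.445% in 10, 15 and 25 nM DasR, and 0.44% and 0.482% in 50 and 200 nM DasR. Drug naive K562 had the lowest share and 200 nM DasR the highest, and 10 nM DasR was close to DMSO. In bulk RNA, more cells of one kind cannot be told apart from more RNA per cell.

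The alpha ring forms the outer gate of the core. At FDR 0.05, 3 of its 7 genes were higher in both stages (PSMA2, PSMA3 and PSMA5), beside 22.6% of all genes early and 16.2% late. PSMA1 was lower in the early stage and 0 were lower in the late one, beside 24% and 17.6% of all genes. None of the 7 passed 0.005 in edgeR, while DESeq2 called PSMA2, PSMA3 and PSMA5 in the late stage. PSMA5, with the highest log2 fold change of the ring in the early stage, was at 124 CPM in drug naive K562 and 133 in DMSO, against 152, 162 and 163 CPM in 10, 15 and 25 nM DasR and 169 and 182 CPM in 50 and 200 nM DasR. All DasR lines lay above both controls, with a log2 fold change of 0.31 ± 0.08 (SE, FDR 0.0212) in the early stage and 0.45 ± 0.09 (FDR 0.0103) at the late stage. PSMA1 had the lowest log2 fold change of the ring in the early stage, -0.25 ± 0.08 (FDR 0.0404). It was at 231 and 247 CPM in the controls and ranged between 197 and 207 CPM in the early lines. It returned to 220 and 243 CPM in the late lines, which overlapped the controls.

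PSMA6, another alpha subunit, was among the few members that differed between the stages. It was at 101 and 108 CPM in the controls, 101, 97.1 and 99.8 in the early lines and 121 and 131 CPM in the late lines. The late lines lay above all the others, and the late minus early log2 difference was 0.34 ± 0.08 (FDR 0.0368). PSMA7 differed in the opposite direction between the stages, by -0.41 ± 0.13, without passing (FDR 0.0709). PSMA4 was at 192 and 232 CPM in the controls and at 166 and 177 CPM in the late lines, a log2 fold change of -0.31 ± 0.14 that did not pass (FDR 0.116).

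The beta ring had the highest median of the role groups with more than 1 gene, with a log2 fold change of 0.33 in the early stage and 0.41 at the late stage, beside 0.23 and 0.27 for the alpha ring. At FDR 0.05, 4 of its 7 genes were higher in the early stage and 5 at the late stage, beside 22.6% and 16.2% of all genes. PSMB2, a structural beta subunit without a proteolytic site, was at 144 CPM in drug naive K562 and 174 CPM in DMSO. It was at 266, 258 and 256 CPM in 10, 15 and 25 nM DasR and at 276 and 262 CPM in 50 and 200 nM DasR. All DasR lines lay above both controls and close to one another. PSMB2 rose 1.63-fold in the early stage (log2 fold change 0.71 ± 0.10, FDR 0.00202) and 1.69-fold in the late stage (0.76 ± 0.11, FDR 0.00344). It passed in 3 of the 7 fits that left out 1 library in the early stage and in 0 of 7 at the late stage, where the largest FDR was 0.0176. The early call was lost without drug naive K562 (FDR 0.0133) or without any 1 of the early lines.

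PSMB5 carries the chymotrypsin-like site, the main target of bortezomib. It was at 94.8 and 94.0 CPM in the controls, 138, 164 and 141 CPM in 10, 15 and 25 nM DasR, and 130 and 146 CPM in 50 and 200 nM DasR. The groups of controls and DasR lines did not overlap, and 15 nM DasR was the highest line. PSMB5 rose 1.57-fold in the early stage (log2 fold change 0.65 ± 0.11, FDR 0.00327), and in the late stage its log2 fold change was 0.55 ± 0.12 (FDR 0.0124). The early call was kept in 2 of 7 fits with a library left out, and lost without either control (FDR 0.0264 without drug naive K562 and 0.022 without DMSO) or any 1 early line. PSMB7, the trypsin-like subunit, had log2 fold changes of 0.33 ± 0.09 (FDR 0.0242) and 0.41 ± 0.10 (FDR 0.0216). PSMB6, the caspase-like subunit, had 0.15 ± 0.15 (FDR 0.441) and 0.38 ± 0.17 (FDR 0.123), with 36.8 CPM in drug naive K562 and 52.1 CPM in DMSO. Its estimates depended on which control was kept, at -0.07 early and 0.15 late without drug naive K562, and 0.43 and 0.65 without DMSO. PSMB3 had the lowest log2 fold change of the ring, -0.26 ± 0.13 (FDR 0.148) in the early stage.

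**Figure D2:**
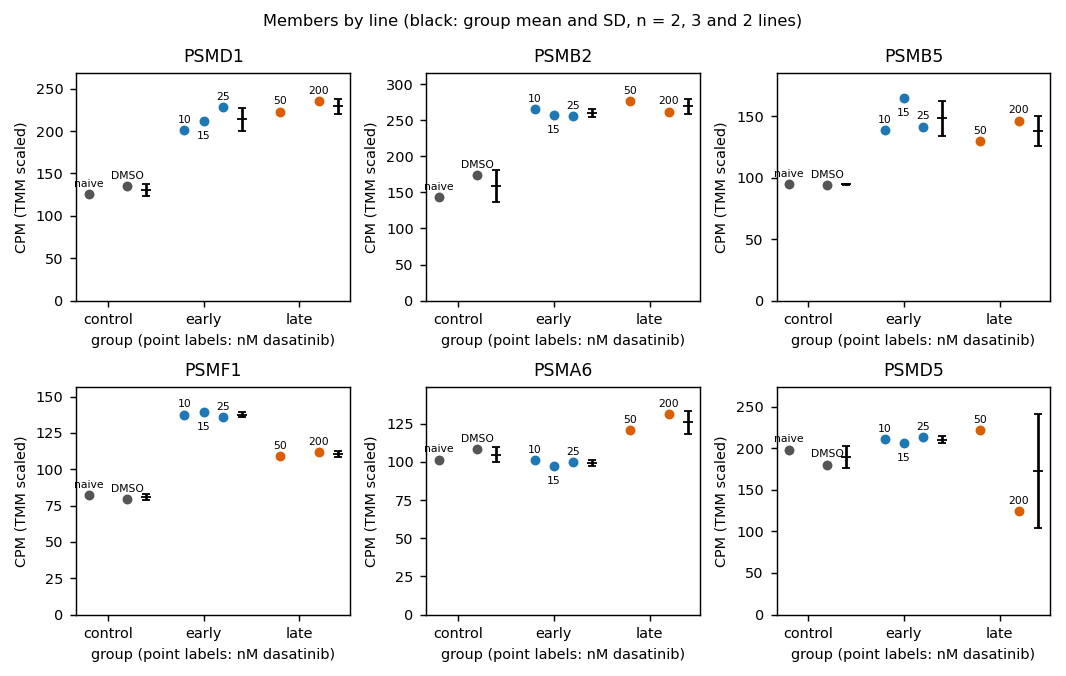
CPM, scaled by TMM, of 6 proteasome genes in each line (coloured points, labelled naive, DMSO or by dasatinib concentration in nM) with the group mean and SD in black (2 control, 3 early and 2 late lines). PSMD1, PSMB2, PSMB5 and PSMF1 lay above both controls in all 5 DasR lines, PSMA6 was higher in both late lines than in all others, and PSMD5 was low in 200 nM DasR at 124 CPM.

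The inducible subunits of the immunoproteasome behaved unlike one another. PSMB8 and PSMB9 lie side by side in the MHC class II region (hg19, chr6:32808494-32812456, minus strand, and chr6:32811913-32827628, plus strand), so their spans overlap in the GENCODE annotation. The promoters below follow RefSeq starts, which lie apart for these genes. PSMB10 lies on another chromosome (chr16:67968409-67970767). The following are the 100 bases before the RefSeq start of each (GRCh38.p14), shown because the 3 genes encode the same kind of subunit and had unlike patterns over the lines. Capitals mark matches on either strand to GAAANNGAAA, the core of an interferon-stimulated element, or to GGGCGG, a GC box. TGACNNNGC, the core of an antioxidant response element, and CCAAT were also searched and have no match in these bases.

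PSMB8 (chr6:32844048-32844147, minus strand): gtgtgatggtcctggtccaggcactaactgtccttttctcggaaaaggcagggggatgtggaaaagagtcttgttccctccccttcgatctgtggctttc

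PSMB9 (chr6:32854092-32854191, plus strand): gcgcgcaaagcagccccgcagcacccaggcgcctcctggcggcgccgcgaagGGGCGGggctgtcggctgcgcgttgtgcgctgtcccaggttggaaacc

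PSMB10 (chr16:67936851-67936950, minus strand): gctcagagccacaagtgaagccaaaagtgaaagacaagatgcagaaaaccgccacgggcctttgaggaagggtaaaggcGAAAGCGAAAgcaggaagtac

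The interferon-stimulated core stands once in the PSMB10 promoter, 21 bases before the start, and not in the 250 bases searched before PSMB8 or PSMB9. Within 250 bases it occurred in 2.34% of the 8339 tested genes with a promoter entry, and in 3.85% of the 26 genes of the 20S and 19S with one. A match in letters is not a bound site, and its absence from this window says nothing about the factor.

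PSMB8, the inducible counterpart of PSMB5, had 34 counts in drug naive K562 and 64 in DMSO. It had 0 counts in 10, 15, 50 and 200 nM DasR and 1 count in 25 nM DasR. The controls were at 1.62 and 2.66 CPM of total counts and the DasR lines at 0.05 or below, with no overlap. At these depths 3 counts, the limit that a count of 0 allows, amount to 0.108 to 0.15 CPM. The ratio of controls to early lines was 165, with a 95% counting interval of 28.9 to 6572 that covers counting error only. PSMB8 was at least 30.8-fold lower in the late lines than in the controls, taking 3 counts over the group as the floor.

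Since PSMB8 did not reach 10 CPM in any line it was not among the 10452 genes. In a fit of all 22776 genes with a count, its FDR was 0.000264 in the early stage and 0.00114 at the late stage, where 6.57% and 3.01% of those genes fell. When each library was left out of that fit in turn, the FDR ran from 0.00012 to 0.00896 in the early stage, with 5 of 7 fits under 0.005 and the others those without drug naive K562 (0.00519) or DMSO (0.00896). In the late stage it ran from 0.000365 to 0.0193, with 4 of 7 under 0.005 and the others those without drug naive K562 (0.0128), DMSO (0.0193) or 200 nM DasR (0.00509).

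PSMB9, the counterpart of PSMB6, had 24 and 36 counts in the controls, 30, 14 and 5 in 10, 15 and 25 nM DasR and 5 and 1 in 50 and 200 nM DasR. In the 10 nM line it was still at 1.08 CPM, close to 1.14 in drug naive K562, and it was at 0.0463 in 200 nM DasR. The ratio of controls to late lines was 9.42 (counting interval 4.08 to 26.7) and that of controls to early lines 2.06 (1.39 to 3.07). In the fit of all genes with a count these did not pass 0.005, with an FDR of 0.0212 in the late and 0.219 in the early stage.

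PSMB10, the counterpart of PSMB7, was the one inducible gene above the filter. It was at 11.99 and 12.4 CPM in the controls, 15.1, 16.8 and 13.0 CPM in 10, 15 and 25 nM DasR, and 17.6 and 17.9 CPM in 50 and 200 nM DasR. Each DasR line lay above both controls. The log2 fold change was 0.30 ± 0.15 (FDR 0.139) in the early stage and 0.54 ± 0.16 (FDR 0.0383) at the late stage.

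The balance within each pair of inducible and constitutive genes was read inside each library, where no scaling between libraries enters. PSMB8 was 1.75% of the counts of PSMB8 and PSMB5 together in drug naive K562 (exact 95% binomial interval 1.22 to 2.44) and 2.76% in DMSO (2.13 to 3.52). It was 0.0357% in 25 nM DasR and 0% in the other DasR lines, where the upper limits of the exact interval were 0.0811% to 0.139%. PSMB9 was 3.14% and 2.8% of its pair with PSMB6 in the controls, 2.31% in 10 nM DasR, 0.952% in 15 nM, 0.509% in 25 nM, 0.45% in 50 nM and 0.075% in 200 nM DasR. The interval of 10 nM DasR, 1.56 to 3.28, overlapped those of both controls. PSMB10 stayed between 10.8% and 14.2% of its pair with PSMB7 in all 7 lines, both genes being higher in every DasR line than in drug naive K562 and DMSO.

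**Figure D3:**
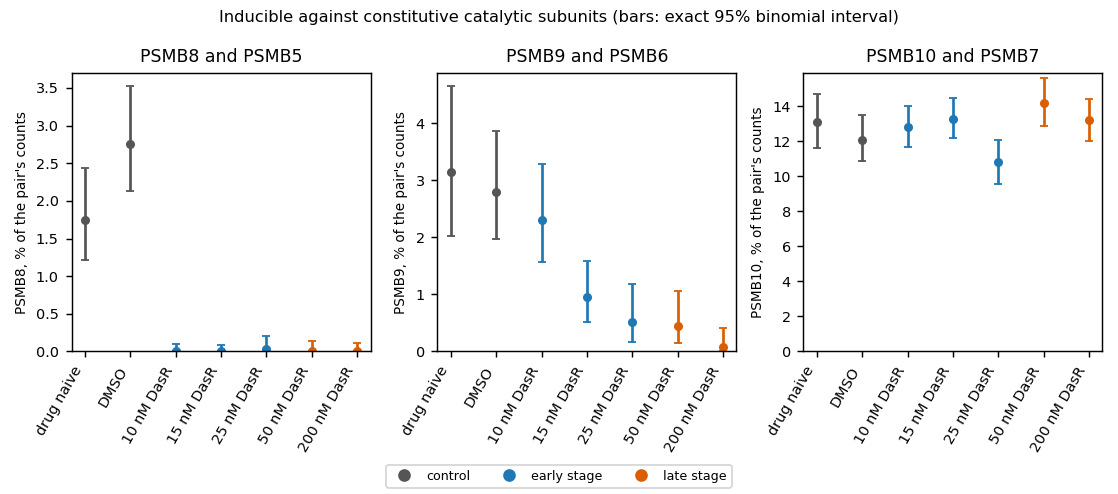
Counts of PSMB8, PSMB9 and PSMB10 as a percent of the counts of each with its constitutive counterpart, in each line (points, coloured by group; bars are exact 95% binomial intervals, counting error only). PSMB8 fell to 0.0357% or 0% in every DasR line, PSMB9 ran from 3.14% in drug naive K562 to 0.075% in 200 nM DasR, and PSMB10 lay between 10.8% and 14.2%.

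The thymus and testis variants were close to nothing here. PSMB11, the thymoproteasome subunit, had 1 count in drug naive K562 and 3 in 15 nM DasR and 0 elsewhere, and PSMA8, the testis alpha subunit, had 0 counts in all 7 libraries.

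In the 19S cap, the ATPase ring moved little. Its 6 genes had a median log2 fold change of 0.13 in the early stage and 0.11 at the late stage. At FDR 0.05, 1 passed, PSMC5 in the early stage. That is 16.7% higher and 0% lower early, beside 22.6% and 24% of all genes. In the late stage 0 passed, beside 16.2% of all genes higher and 17.6% lower. PSMC5 was at 89.6 and 99.7 CPM in the controls, 113, 159 and 142 in the early lines and 104 and 105 CPM in the late lines. The early log2 fold change was 0.54 ± 0.15 (FDR 0.0199) and the late one 0.14 ± 0.16 (FDR 0.507). The exons of PSMC5 overlap those of FTSJ3 on the opposite strand by 655 bases. FTSJ3 itself was higher in the early stage, with a log2 fold change of 1.37 (FDR 0.00109). The part of this overlap in the PSMC5 value was not tested, and the strand setting of the counting is not given in the sources used here. PSMC4 had the lowest log2 fold change of the ring in the early stage, -0.06 ± 0.12 (FDR 0.707).

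The non-ATPase subunits hold the substrate receptors, the scaffold and the deubiquitinase PSMD14. At FDR 0.05, 3 of the 11 were higher in the early stage and 3 at the late stage, that is 27.3% in each, beside 22.6% and 16.2% of all genes. The median log2 fold changes were 0.18 and 0.18. PSMD1, the large scaffold subunit at the base of the cap, was at 126 and 135 CPM in the controls. It was at 201, 212 and 228 CPM in 10, 15 and 25 nM DasR and at 223 and 236 CPM in 50 and 200 nM DasR. The 5 DasR lines were all far above both controls, and early and late lines overlapped. PSMD1 rose 1.64-fold in the early stage (log2 fold change 0.72 ± 0.09, FDR 0.00129) and 1.76-fold in the late stage (0.82 ± 0.10, FDR 0.00187). The calls held in 4 of 7 fits with a library left out in the early stage and in 2 of 7 at the late stage, with a largest FDR of 0.0169. Both were lost without either control or 25 nM DasR, and the late call also without either late line.

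PSMD2, the companion scaffold, had smaller differences of 0.29 ± 0.10 (FDR 0.0451) and 0.44 ± 0.11 (FDR 0.0203). PSMD12, a lid subunit, had the second largest range of log2 CPM over the 7 lines among the 44 genes, 0.92, after PSMB2 with 0.94 and before PSMD1 with 0.91. It was at 79.4 CPM in drug naive K562, 104 CPM in DMSO, 120, 149 and 150 CPM in the early lines and 121 and 133 CPM in the late lines. Its log2 fold change was 0.61 ± 0.15 (FDR 0.0145) in the early stage and 0.47 ± 0.16 (FDR 0.0593) at the late stage, and the spread between the 2 controls entered both. Among the 11 non-ATPase subunits, PSMD3 had the lowest early log2 fold change, -0.23 ± 0.10 (FDR 0.107).

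**Figure D4:**
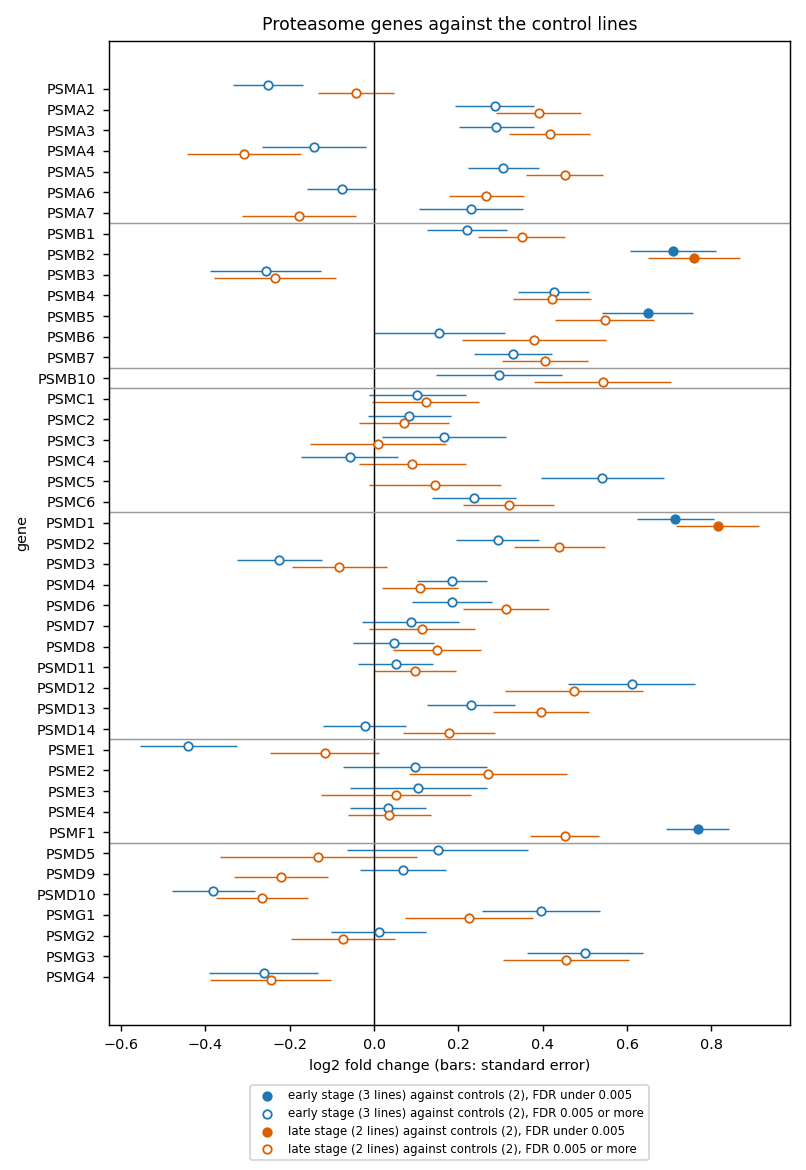
Log2 fold change of each of the 44 genes against the 2 control lines in the early stage (blue, 3 lines) and the late stage (orange, 2 lines), with the standard error as a bar; filled points have an FDR under 0.005. The filled points are PSMB2, PSMB5, PSMD1 and PSMF1 in the early stage and PSMB2 and PSMD1 at the late stage.

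Per length of transcript, the subunit genes of one complex were not at one level. CPM per kilobase in the 20S core ran from 44.6 for PSMB6 to 230 for PSMB1 in drug naive K562, a 5.17-fold spread, and from 74.9 for PSMB6 to 330 for PSMB1 in 200 nM DasR, a 4.40-fold spread. PSMB6 was the lowest of the 14 in all 7 lines, and PSMB2 took the place of PSMB1 as the highest in 10, 15, 25 and 50 nM DasR. In the 19S cap the spread was narrower, between 2.86-fold and 3.23-fold in each line. PSMD7 was the lowest gene in every line but DMSO, where it was PSMD1 at 40.6 CPM per kilobase. The medians in drug naive K562 were 99.0 CPM per kilobase for the 20S and 64.7 for the 19S.

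**Figure D5:**
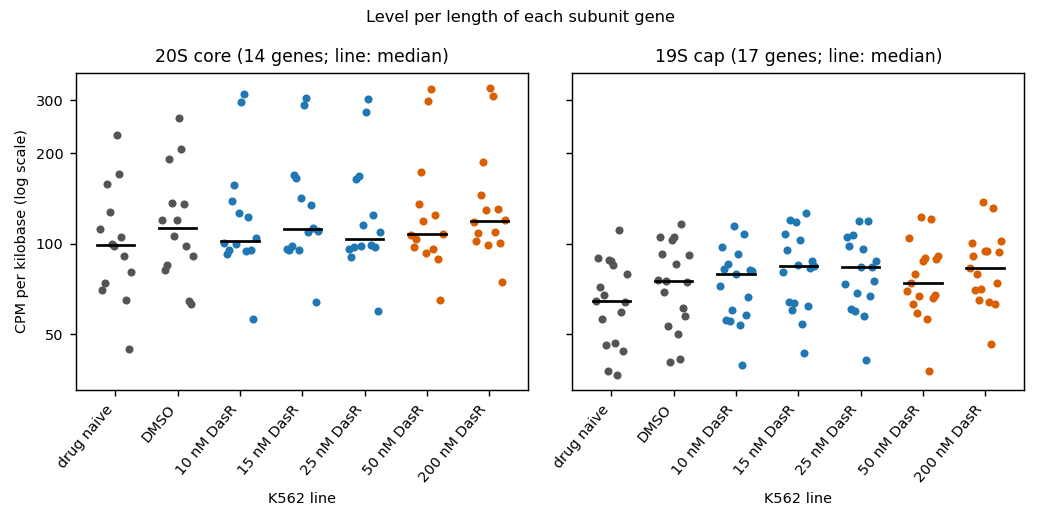
CPM per kilobase (log axis) of the 14 genes of the 20S core and the 17 of the 19S cap in each line, 1 point a gene, with the median as a black line. The 20S median was 99.0 in drug naive K562 and 119 in 200 nM DasR, and the 19S median 64.7 and 83.2.

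The 5 genes of other activators and of the inhibitor were split. PSMF1 encodes PI31, first described as an inhibitor of the 20S core. It was at 82.4 and 79.3 CPM in the controls, 138, 139 and 136 in the early lines and 109 and 112 CPM in the late lines. The 3 groups did not overlap, and the late lines lay between the others. PSMF1 rose 1.70-fold in the early stage (log2 fold change 0.77 ± 0.07, FDR 0.000529), a call kept in 5 of 7 fits with a library left out and lost without either control, at an FDR of up to 0.00631. In the late stage the log2 fold change was 0.45 ± 0.08 (FDR 0.00679). The late minus early difference was -0.32 ± 0.07 (FDR 0.0365).

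PSME1 and PSME2 form the interferon-inducible 11S cap. PSME1 was at 38.8 and 34.7 CPM in the controls, 27.7, 27.0 and 26.6 in the early lines and 30.7 and 37.1 CPM in the late lines. The early lines lay below all the others, with a log2 fold change of -0.44 ± 0.12 (FDR 0.0187). In the late stage it was -0.12 ± 0.13 (FDR 0.509). PSME2 had 0.10 ± 0.17 (FDR 0.666) and 0.27 ± 0.19 (FDR 0.297). It was at 31.6 CPM in drug naive K562 and 47.9 CPM in DMSO, and the DasR lines ran from 39.8 to 49.0 CPM. Without drug naive K562 its estimates were -0.17 early and 0.003 late, and without DMSO 0.43 and 0.60, and its difference from PSME1 was not tested. PSME3, the nuclear activator, had 125 CPM in drug naive K562 and 191 CPM in DMSO, and the 5 DasR lines lay between them at 163 to 172 CPM. PSME4, the activator PA200, had a log2 fold change of 0.03 ± 0.09 (FDR 0.776) and 0.04 ± 0.10 (FDR 0.801).

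Of the 7 assembly chaperones with PSM names, in the early stage 1 was higher and 1 lower at FDR 0.05, that is 14.3% in each direction against 22.6% and 24% of all genes. None passed in the late stage, against 16.2% and 17.6%. PSMG3, a chaperone of the alpha ring, had a log2 fold change of 0.50 ± 0.14 (FDR 0.022) in the early stage and 0.46 ± 0.15 (FDR 0.0523) at the late stage. PSMD10, gankyrin, a chaperone of the ATPase ring, had -0.38 ± 0.10 (FDR 0.0175) and -0.27 ± 0.11 (FDR 0.0991). PSMG1, which pairs with PSMG2, had 0.40 ± 0.14 (FDR 0.0511), while PSMG2 had 0.01 ± 0.11 (FDR 0.947). PSMG4 had -0.26 ± 0.13 (FDR 0.135) and PSMD9 0.07 ± 0.10 (FDR 0.608) in the early stage.

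PSMD5 was set apart by 1 line. It was at 198 and 180 CPM in the controls, 211, 206 and 214 in the early lines, 222 CPM in 50 nM DasR and 124 CPM in 200 nM DasR. The 200 nM line was the lowest of the 7 and its late stage partner the highest, and the late log2 fold change of -0.13 ± 0.23 (FDR 0.69) rests on these opposite ends. PSMD5-AS1 is an antisense gene whose annotated span overlaps that of PSMD5. It was at 159 and 161 CPM in the controls, 102, 73.84 and 75.02 in the early lines and 81.6 and 45.7 CPM in the late lines. All DasR lines lay below both controls, with log2 fold changes of -0.93 ± 0.24 (FDR 0.0172) and -1.33 ± 0.27 (FDR 0.0109), and both genes were lowest in 200 nM DasR. PSMC3IP, a meiotic recombination factor, had -0.69 ± 0.14 (FDR 0.00722) and -0.86 ± 0.16 (FDR 0.00781). Its exons overlap those of MLX on the opposite strand by 775 bases. MLX itself had log2 fold changes of -0.67 (FDR 0.00321) early and -0.45 (FDR 0.0283) late. The part of this overlap in the PSMC3IP values was not tested. PSMA3-AS1 had 0.07 ± 0.10 (FDR 0.57) in the early stage. Under the filter lay PSMG3-AS1, with 170 and 242 counts in the controls, 131, 161 and 88 in the early lines and 76 and 49 in the late lines (FDR 0.0287 and 0.00498 in the fit of all genes with a count). PSMG3-AS1 overlaps the exons of PSMG3 by 60 bases. PSMB8-AS1 had 3 counts in each control and 0 in all DasR lines, and PSMD6-AS2 between 88 and 171 counts. Of the 47 genes, 15 have annotated exons that overlap another counted gene. Where exons overlap, reads of both genes cannot be told apart without strand. PSMD5 and PSMD5-AS1 have 0 annotated exon bases in common with another counted gene, although their spans overlap each other. The part of this overlap in their values was not tested.

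The stages differed from each other in few members. At FDR 0.005, 0 of the 44 genes passed between late and early lines in edgeR, DESeq2 or limma voom. In edgeR 0% of all genes passed in either direction. An unadjusted p under 0.05 was found in edgeR for 7 members, beside 3450 of all 10452 genes. At FDR 0.05, PSMA6 was higher and PSMF1 lower in the late stage, that is 2.27% in each direction, against 6.6% and 6.1% of all genes. PSME1, higher in the late than the early lines by 0.32 ± 0.12 (FDR 0.107), and PSMC5, lower by -0.40 ± 0.15 (FDR 0.109), did not pass. Both late lines lay above all early lines in 14 of the 44 genes and below them in 6, against 26.4% and 26.9% of all genes.

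The 4 genes that rose lie on 4 chromosomes (hg19): PSMD1 at chr2:231921559-232037830, PSMB2 at chr1:36065142-36107127, PSMB5 at chr14:23485752-23504439 and PSMF1 at chr20:1093883-1170059. The nearest 5 tested genes on each side were read in the same fit. Around PSMD1 their median log2 fold change was -0.002 in the early and 0.11 in the late stage, against 0.72 and 0.82 for PSMD1. Around PSMB2 it was 0.41 and 0.13, around PSMB5 0.57 and 0.35, and around PSMF1 0.41 and 0.53. The neighbourhoods of PSMB2, PSMB5 and PSMF1 were thus also above 0, and their part in these values was not tested. The 100 bases before the starts of PSMD1 and PSMB2, the genes that rose in both stages, are given with the same motifs in capitals (GRCh38.p14, RefSeq).

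PSMD1 (chr2:231056767-231056866, plus strand): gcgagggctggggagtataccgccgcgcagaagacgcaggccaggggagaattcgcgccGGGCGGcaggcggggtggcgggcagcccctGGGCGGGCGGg

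PSMB2 (chr1:35641527-35641626, minus strand): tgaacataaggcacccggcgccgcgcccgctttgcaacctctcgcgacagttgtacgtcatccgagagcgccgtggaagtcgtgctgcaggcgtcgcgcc

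PSMD1 holds 3 GC boxes there, of which the last 2 overlap, and PSMB2 holds none of the 4 motifs in the 250 bases searched. Of the 26 genes of the 20S and 19S with a promoter entry, 65.4% held a GC box, 46.2% a CCAAT box and 19.2% an antioxidant response core. In all tested genes with an entry the shares were 66.8%, 34.9% and 12.3%.

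Further proteasome genes lack a PSM name. Of 9 such genes listed, USP14 and TXNL1 rose in the early stage and 0 passed at the late stage at FDR 0.005. The early count is 22.2% of the list, beside 7.92% of all genes higher in that stage and 3.42% in the late one. The list was mixed, with a median log2 fold change of -0.05 in the early stage and 5 of 9 genes below 0. KIAA0368, a proteasome adaptor named after its values were seen, had -0.44 ± 0.09 (FDR 0.00644) and -0.35 ± 0.10 (FDR 0.0301). USP14, a deubiquitinase that sits on the cap, was at 185 and 172 CPM in the controls, 335, 326 and 323 in the early lines and 304 and 212 CPM in the late lines. Its log2 fold change was 0.88 ± 0.15 (FDR 0.00356) and 0.53 ± 0.16 (FDR 0.0389). TXNL1, a thioredoxin bound to the cap, had 0.51 ± 0.08 (FDR 0.00278) and 0.45 ± 0.09 (FDR 0.00915). UBE3C, a ubiquitin ligase of the proteasome, had -0.31 ± 0.09 (FDR 0.0278) and -0.60 ± 0.10 (FDR 0.00565). ADRM1, a ubiquitin receptor of the cap, had 0.60 ± 0.13 (FDR 0.00939) and 0.30 ± 0.14 (FDR 0.139). POMP, the maturation factor of the core, had 0.27 ± 0.10 (FDR 0.0595) and 0.39 ± 0.11 (FDR 0.0294), and SHFM1, the small lid subunit, -0.08 ± 0.11 (FDR 0.583).

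The transcript of NFE2L1, the activator of subunit genes, fell in both stages. It was at 340 and 318 CPM in the controls, 191, 176 and 183 in the early lines and 209 and 175 CPM in the late lines, with no overlap. The log2 fold change was -0.84 ± 0.10 (FDR 0.000951) and -0.78 ± 0.11 (FDR 0.00315). NFE2L2, its relative in the oxidative stress response, was at 178 and 194 CPM in the controls and between 96.2 and 132 CPM in the DasR lines, and fell in the early stage (-0.86 ± 0.09, FDR 0.000693) with -0.56 ± 0.10 (FDR 0.00725) in the late stage. NFE2L1 is made active by cleavage of its protein, which these counts do not measure. Of the 10 genes listed around NFE2L1, 1 rose and 2 fell in the early stage, and 0 rose and 1 fell in the late stage, beside 7.92% and 10.1% of all genes early and 3.42% and 4.56% late. At FDR 0.05 the early stage had 2 higher and 4 lower, beside 22.6% and 24% of all genes, and the late stage 3 higher and 2 lower, beside 16.2% and 17.6%. NFE2L3, the third relative, named after its values were seen, went against NFE2L1 and NFE2L2. It was at 24.7 and 23.5 CPM in the controls, 42.6, 29.7 and 32.6 in the early lines and 49.0 and 43.6 CPM in the late lines, with log2 fold changes of 0.54 ± 0.17 (FDR 0.0325) and 0.94 ± 0.18 (FDR 0.00856). The one that rose was MAFK, a small MAF partner named after its values were seen, with 0.96 ± 0.13 (FDR 0.00142). Another partner, MAFF, was at 13.2 and 8.52 CPM in the controls, between 2.79 and 3.55 CPM in the early lines and at 5.85 and 15.4 CPM in the late lines, and differed between the stages by 1.79 ± 0.42 (FDR 0.0359). NGLY1, which removes sugars from NFE2L1, had a late minus early difference of 0.27 ± 0.08 (FDR 0.0641).

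Upstream of the proteasome, 0 of the 6 ubiquitin and E1 genes passed FDR 0.005 in any of the 3 comparisons, where 7.92% of all genes tested passed as higher and 10.1% as lower early, 3.42% and 4.56% late, and 0% between the stages. There were 4 of 6 in the early and 1 in the late stage at an unadjusted p under 0.05, beside 5665 and 4798 of all 10452 genes. The second activating enzyme, UBA6, was lower in the early stage at -0.38 ± 0.10 (FDR 0.0221) and higher in late than early lines by 0.40 ± 0.10 (FDR 0.0489). UBA1, the main activating enzyme, had -0.45 ± 0.09 (FDR 0.0118) in the late stage. RPS27A, a ubiquitin fusion gene, had 0.08 ± 0.08 (FDR 0.437) in the late stage.

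Of 11 shuttle receptor and segregase genes, 2 rose in the early stage and 1 at the late stage, that is 18.2% and 9.09%, beside 7.92% and 3.42% of all genes. NSFL1C, the p47 cofactor of the VCP segregase, was at 68.2 and 61.3 CPM in the controls and between 98.1 and 110 CPM in the 5 DasR lines. It rose by 0.70 ± 0.10 (FDR 0.00157) and 0.69 ± 0.10 (FDR 0.00373) on the log2 scale. It is also one of the 10 neighbours of PSMF1 on chromosome 20. UFD1L, another VCP cofactor, was at 136 and 151 CPM in the controls, 346, 395 and 371 in the early lines, 354 CPM in 50 nM DasR and 201 CPM in 200 nM DasR, with 1.37 ± 0.23 (FDR 0.00319) in the early stage and 0.95 ± 0.24 (FDR 0.0215) at the late stage. UBQLN4, a shuttle receptor, had 0.45 ± 0.08 (FDR 0.00803) in the late stage. VCP itself, listed also with NFE2L1, had a late minus early difference of 0.28 ± 0.10 (FDR 0.096).

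Downstream, the immunoproteasome supplies peptides to MHC class I through the TAP transporter. Of 11 genes listed for this pathway, 6 passed the filter, and B2M, the class I light chain, fell in the early stage. That is 1 of 6, or 16.7%, beside 10.1% of all genes tested. At the late stage 0 of 6 were called in edgeR, beside 3.42% of all genes higher and 4.56% lower. At FDR 0.05, 1 was higher and 4 lower early, beside 22.6% and 24% of all genes. At that FDR 0 were higher and 1 lower late, beside 16.2% and 17.6%. B2M was at 371 and 368 CPM in the controls, 278, 236 and 225 in the early lines and 242 and 244 CPM in the late lines. Its log2 fold change was -0.58 ± 0.10 (FDR 0.00411) and -0.60 ± 0.11 (FDR 0.00837). TAP2 had -1.35 ± 0.28 (FDR 0.00777) in the early stage, and IRF1, an interferon-induced activator, -0.41 ± 0.20 (FDR 0.159) in the late stage. TAP1, which lies beside PSMB9, did not reach the filter, with 10.8 and 9.94 CPM in the controls, 5.97, 5.54 and 4.95 in the early lines and 3.66 and 3.67 CPM in the late lines. All DasR lines were lower than both controls. NLRC5, an activator of class I genes named here after its values were seen, was at 0.05 and 0 CPM in the controls, 8.87, 6.62 and 2.53 in the early lines and 1.85 and 0.28 CPM in the late lines. It stayed under the filter and was not among the 10452 genes.

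The lines carried the erythroid markers of K562. All 9 were detected in all 7 lines, with HBG2 the most abundant in each. Their summed CPM was 3952 and 3175 in the controls, 7946, 8227 and 6389 in the early lines and 5071 and 4416 in the late lines. TFRC, the transferrin receptor, rose in both stages by 1.13 ± 0.12 (FDR 0.000677) and 0.85 ± 0.13 (FDR 0.00373), and HBG1, a fetal globin, rose in the early stage by 1.24 ± 0.19 (FDR 0.0024), with 0.59 ± 0.20 (FDR 0.0539) at the late stage. EPOR, the erythropoietin receptor, rose in the early stage by 0.99 ± 0.15 (FDR 0.00229) and was lower in late than early lines by -0.61 ± 0.15 (FDR 0.0393). In all, 3 of the 9 markers (33.3%) rose early, beside 7.92% of all genes tested, and 1 of 9 (11.1%) rose late, beside 3.42%. GATA1 had a late minus early difference of 0.49 ± 0.12 (FDR 0.0447). PSMF1 was likewise highest in the early lines, and the part of the erythroid difference in the proteasome values was not tested. Of 10 markers of other cells, LYZ was the most abundant in each line, at 24.8 to 103 CPM, with a summed CPM of 40.4 to 121. PECAM1 was at or below 12.2 CPM, and CD3E, CD14, MS4A1, MPO and KRT5 were at or below 1.41 CPM in every line.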

How the data were processed

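Per the labels and the study's methods, the authors depleted ribosomal RNA, prepared NEXTFlex Rapid Directional libraries, sequenced paired ends on a MiSeq, aligned reads to hg19 with STAR and counted reads per NCBI gene ID with featureCounts. Versions and the strand setting are not given in the sources used here. The deposited table holds raw counts for 7 libraries, and 0 columns of per-sample values were left unused. The authors' comparison tables supplied gene symbols and the gene length in bases; their fold changes, mean expression, p-values and FDR hold the study's own comparisons and were not used.

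Genes at 10 CPM or more in at least 2 libraries were tested (10452, holding 98.4% to 98.6% of counts) with the quasi-likelihood test of edgeR 4.0.16 in R 4.3.3, TMM scaling and 1 coefficient per group over all 7 libraries. Benjamini-Hochberg adjustment ran over all tested genes, with the FDR threshold of 0.005 that the study used and 0.05 as a looser one. CPM are TMM scaled, except those of PSMB8 and PSMB9, which used total counts, and log2 CPM used a prior count of 2. The common dispersion was 0.026. Members, lists, motifs and tests were chosen with earlier results of these data known. Genes named were all activators, chaperones and catalytic pairs, the 3 smallest p per comparison and direction, the highest and lowest of each 20S and 19S list, the 3 widest ranges, and the 2 smallest p of each other list. Some genes of this rule are not reported here. DESeq2 1.42.0, limma 3.58.1 (voom), other scalings, filters and left-out libraries were alternatives. Leaving libraries out of the fit without a filter, for PSMB8 and PSMB9, was added after seeing the data. On simulated counts for the early comparison over 10452 genes, 4 of 67 genes changed by 0.5 on the log2 scale were called at FDR 0.005, 51 of 67 changed by 1 and 66 of 66 changed by 2, with 0 of 10252 unchanged genes. In the data themselves 1881 genes passed that FDR in the early comparison, far more than were changed in the simulation. The adjusted cutoff was therefore stricter in the simulation, and its recovery is not that of these data. Promoters came from RefSeq (GRCh38.p14) by gene ID.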

Additional observations from a re-analysis of the deposited data

Results flagged for a closer look

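Among the proteasome genes, 2 differed between the late and early stages at an FDR under 0.05 in edgeR's test of the difference itself. The log2 difference, late minus early, was -0.316 for PSMF1, which was lower in both late lines than in all 3 early lines (FDR 0.0365). It was 0.343 for PSMA6, which was higher in both late lines (FDR 0.0368). In the lists read beside them the same test gave 1.788 for MAFF (FDR 0.0359), 0.398 for UBA6 (FDR 0.0489), 0.492 for GATA1 (FDR 0.0447) and -0.609 for EPOR (FDR 0.0393). None of these passed an FDR of 0.005. Groups of 2 and 3 lines were too small for the test of single lines that stand apart.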

How the results depend on the processing

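Of the 44 genes, 4 passed FDR 0.005 in the early stage and 2 at the late stage. DESeq2 called 7 and 10, including those 4 and 2. The shares of all genes given here are those of edgeR, so these DESeq2 counts have no background to be read against. In edgeR the looser FDR of 0.05 gave 16 and 13, and 2 between the stages in place of 0. A fit of the 2 groups alone called 0 in the late stage. With 1 library left out, the early count ran from 0 to 4 and the late count from 0 to 1. The early count was 0 without drug naive K562, 1 without DMSO, 2 without 10 nM DasR, 2 without 15 nM DasR and 1 without 25 nM DasR. The late count was 0 without either control, either late line or 25 nM DasR, and 1 without 10 nM or 15 nM DasR. Some of these fits hold 1 library in a group, whose spread is then assumed to be that of the other groups. Of the values for single genes and list medians, 640 held, 33 no longer passed, 3 newly passed, 17 moved by more than the spread and 0 called values changed sign. The median of the activators in the early stage was 0.10, with -0.17 without drug naive K562 and 0.43 without DMSO. At the late stage it was 0.05, with 0.003 without drug naive K562, 0.39 without DMSO and 0.14 without 200 nM DasR, and 0.09 and 0.10 with the 1 CPM filter and no filter. The early median of the 19S was 0.17, with 0.03 without drug naive K562 and 0.22 without DMSO. For the 20S core these early medians were 0.26, 0.16 and 0.39, and the late ones 0.39, 0.27 and 0.49. The early median of both particles was 0.19, with 0.345 without DMSO, and the late one 0.27, with 0.15 without drug naive K562. Limma voom, other scalings and other filters on low counts left the counts within 1.5 times. No paired analysis was possible because each group holds different doses or controls, whose numbers are not shared.

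Each line was sequenced once, and no difference between lines can be told from culture or library preparation. Changes of 0.5 on the log2 scale were mostly missed in simulation, where far fewer genes changed than were called in the early comparison. How often such changes were missed in these data is not known. Shares of PSMB8 and PSMB9 rest on 64 counts or fewer per library.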
